A study of Mus musculus with 8 samples.

Results

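The segment dependence of the knockout effect was measured in mouse spinal cord as the difference of 2 differences, thoracic TKO minus thoracic WT and, taken from it, lumbar TKO minus lumbar WT. All 8 libraries of the series enter it. Of 41325 annotated genes, 16459 had enough uniquely placed reads to be tested. TKO animals were homozygous for deletions of the Mir34a, Mir34bc and Mir 449 loci, and WT animals were C57BL/6J. All tissue was taken at postnatal day 14. The 4 groups were thoracic TKO, thoracic WT, lumbar TKO and lumbar WT, with 2 libraries of polyadenylated RNA each. The labels name neither the background strain of the TKO animals nor whether a thoracic and a lumbar library came from the same mouse. P-values therefore measure the spread between these libraries, which may be technical.

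MicroRNAs of the miR-34/449 family guide repression of messenger RNAs that pair with their seed, bases 2 to 8 of the mature strand. The family is known for its place in the p53 response and in the growth of motile cilia. The thoracic cord holds the sympathetic preganglionic neurons and serves the trunk, and the lumbar cord holds the large motor pools of the hindlimb. The mature strands of 4 deleted members are shown because they share 1 seed, in capitals, so that they can pair with the same sites. Sequences are from RefSeq on GRCm38.p6.
mmu-miR-34a-5p: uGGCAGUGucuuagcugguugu
mmu-miR-34b-5p: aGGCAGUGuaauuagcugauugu
mmu-miR-449a-5p: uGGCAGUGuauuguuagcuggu
mmu-miR-449c-5p: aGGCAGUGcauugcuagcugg
These lie at chr4:150068473-150068494 (plus strand), chr9:51103610-51103632 (minus strand), chr13:113037549-113037570 (plus strand) and chr13:113036008-113036028 (plus strand), in the order listed. The other two members are miR-34c-5p and miR-449b.

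The deleted loci and the segment labels were checked first. The precursor genes Mir34a, Mir34b, Mir34c, Mir449a, Mir449b and Mir449c had 0 unique reads in all 8 libraries of either genotype, so they check no label in polyadenylated RNA. Gm37795, a transcript model beside the Mir34a mature strand (chromosome 4, 150068539 to 150070997), had 32.6 and 42.8 CPM (unique gene reads scaled to library size) in thoracic TKO, against 9.84 and 8.07 CPM in thoracic WT. It had 36.5 and 45.5 CPM in lumbar TKO, against 10.2 and 6.44 CPM in lumbar WT. Its segment difference was −0.23 on the log2 scale (SE 0.36, adjusted p = 0.891). Hoxa10, a patterning gene of the caudal cord, had 5.02 and 3.78 CPM in thoracic TKO, against 9.47 and 3.36 CPM in thoracic WT. It had 31.1 and 34.9 CPM in lumbar TKO, against 39.4 and 37.3 CPM in lumbar WT. Hoxc11, Hoxd11 and Hoxa11 had no unique read in a thoracic library and 2.97 to 8.01 CPM in the lumbar libraries.

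Libraries held 15335391 to 19977484 unique gene reads, and 20942 to 21317 genes had a read. Mitochondrially encoded genes took 12.5% and 6.88% of reads in thoracic TKO replicates 1 and 2, and 17.5% and 9.94% in thoracic WT. They took 12.6% and 5.27% in lumbar TKO and 11.1% and 13% in lumbar WT. A marker of tissue beside the cord also differed between libraries. Mylpf, a light chain of fast skeletal muscle, had 28.1 CPM in thoracic WT replicate 1 and 1.29 to 4.61 CPM in the other 7 libraries.

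No gene passed the test for a knockout effect that differed between the segments. The quasi-likelihood test of edgeR, adjusted after Benjamini and Hochberg over 16459 genes, made 0 calls (percent called 0, smallest adjusted p = 0.847). The unadjusted p was under 0.05 for 565 genes (3.43%), where 823 would be expected with no effect. Of these, 360 had a thoracic effect above the lumbar one (2.19%) and 205 a thoracic effect below it (1.25%). DESeq2 and limma-voom also called 0, with 466 and 655 genes at an unadjusted p under 0.05. A fit with the mitochondrial share of reads as a covariate, described below, called 212 genes, and replicate blocks with the lumbar WT numbers crossed, chosen after seeing the data, called 379 and 437. The segment difference had a median SE of 0.336 and its 95% interval reached a median of 0.75 to either side, both on the log2 scale. For 7143 genes (43.4%) the whole interval lay within 1 log2 unit of 0, and for the others it reached beyond a 2-fold difference on at least 1 side. The count of genes under 0.05 moved with single libraries. It was 169 without thoracic WT replicate 1, 1478 without thoracic WT replicate 2, 239 and 1989 without lumbar TKO replicates 1 and 2, and 158 without lumbar WT replicate 1. No gene was called in any of the 8 fits that left out 1 library.

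The knockout effect pointed mostly the same way in both segments. The signs matched for 10830 genes (65.8%), and the 2 effects had a Pearson correlation across genes of 0.51 (0.556 over the 10292 genes with a mean of 10 CPM or more). Genes are not independent replicates, and thoracic and lumbar libraries may share mice. In the thoracic cord 49.1% of estimates lay above 0, and in the lumbar cord 50.1%. Of the 3405 genes with an unadjusted p under 0.05 in the thoracic cord (20.7%, with 12.2% higher and 8.52% lower in TKO), 2812 (82.6%) had the same sign in the lumbar cord. Of the 947 such genes in the lumbar cord (5.75%, with 3% higher and 2.76% lower in TKO), 815 (86.1%) had the same sign in the thoracic cord. A set of 286 genes (1.74%) was higher in TKO in every thoracic pair of libraries and lower in TKO in every lumbar pair, and 320 (1.94%) had the opposite arrangement. Of the 407 genes under 0.05 in both segments, 3 had opposite signs. The thoracic effects had an SD across genes of 0.541 on the log2 scale and the lumbar effects 0.398. The counts under 0.05 within a segment moved with single libraries. The thoracic count was 1011 without thoracic WT replicate 1 and 1361 without thoracic TKO replicate 2. The lumbar count was 1629 without lumbar TKO replicate 1 and 570 and 500 without lumbar WT replicates 1 and 2.

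**Figure D1:**
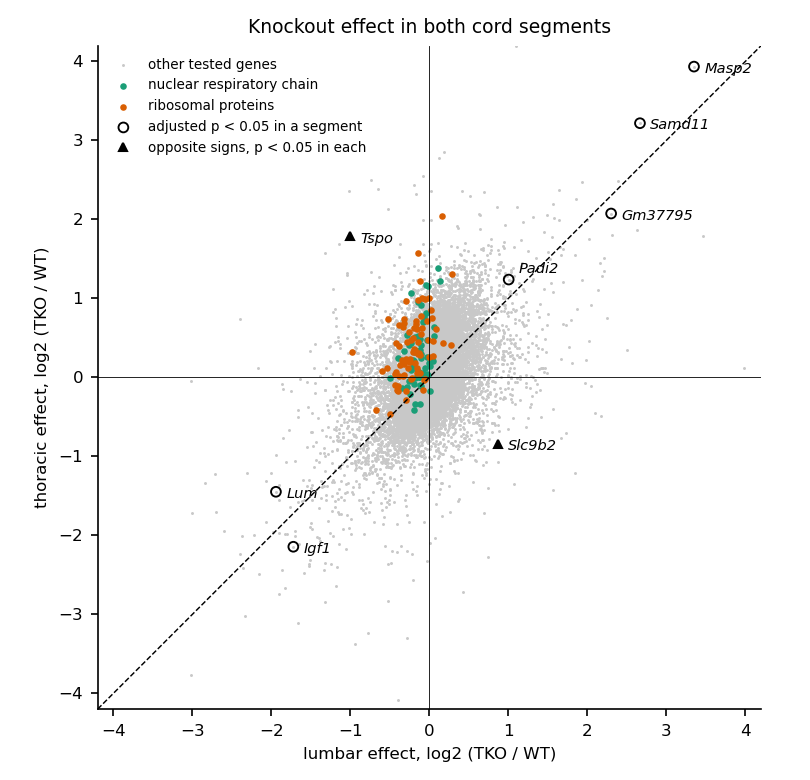
Each point is 1 of the 16459 tested genes, with the thoracic effect on the y axis and the lumbar effect on the x axis, both as log2 (TKO / WT) from edgeR, and the dashed line marks equal effects. The circled genes with an adjusted p under 0.05 in a segment have the same sign in both, while the ribosomal protein and respiratory chain genes sit mostly above 0 on the thoracic axis and below 0 on the lumbar axis. Triangles mark Tspo and Slc9b2, and 10 genes beyond the axes are not drawn.

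Within a segment, 6 genes were called in the thoracic cord (0.0365%), 4 higher (0.0243%) and 2 lower (0.0122%) in TKO. In the lumbar cord 5 were called (0.0304%), 2 higher (0.0122%) and 3 lower (0.0182%) in TKO, and 4 genes were called in both segments. These 4, named after their values were seen, were Igf1, Masp2, Zfp982 and Gm37795. Igf1, the growth factor that promotes neuronal survival and myelination (chromosome 10, 87858265 to 87937042), had 5.14 and 5.43 CPM in thoracic TKO, against 23.2 and 23.6 CPM in thoracic WT. It had 6.70 and 5.07 CPM in lumbar TKO, against 18.3 and 20.7 CPM in lumbar WT. Igf1 thus fell in both segments, with log2 effects of −2.15 in the thoracic cord (adjusted p = 0.00928) and −1.72 in the lumbar cord (adjusted p = 0.0343), and its segment difference was −0.42 (SE 0.29, 95% interval −1.07 to 0.23). Masp2, the protease that starts the lectin branch of the complement cascade (chromosome 4, 148602554 to 148615499), had 5.26 and 5.66 CPM in thoracic TKO, against 0.269 and 0.433 CPM in thoracic WT. It had 5.5 and 5.13 CPM in lumbar TKO, against 0.529 and 0.504 CPM in lumbar WT, and its segment difference was 0.58 (SE 0.49). Zfp982, a zinc finger gene, had 0 or 1 read in each TKO library, so no segment difference is given for it. The position of Zfp982 is not reported here. Masp2 and Gm37795, like Samd11 and Padi2 below, lie on chromosome 4, which also carries the deleted Mir34a locus. What that position contributes to their change was not tested.

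The remaining 3 calls passed in 1 segment only, and for each the segment difference had an adjusted p of 0.847. Samd11, a nuclear protein gene (chromosome 4, 156246966 to 156255657), had 5.2 and 8.97 CPM in thoracic TKO, against 0.753 and 0.758 CPM in thoracic WT. It had 6.16 and 8.49 CPM in lumbar TKO, against 1.29 and 1.01 CPM in lumbar WT. Its effect was 3.22 in the thoracic cord (adjusted p = 0.0298) and 2.66 in the lumbar cord (adjusted p = 0.0654), a difference of 0.55 (SE 0.52, 95% interval −0.61 to 1.71). Padi2, the enzyme that citrullinates myelin basic protein (chromosome 4, 140906344 to 140952586), had 298 and 290 CPM in thoracic TKO, against 116 and 134 CPM in thoracic WT. It had 229 and 215 CPM in lumbar TKO, against 113 and 109 CPM in lumbar WT. Its effects were 1.24 (adjusted p = 0.0365) and 1.0 (adjusted p = 0.115), and their difference was 0.23 (SE 0.21). Lum, a matrix proteoglycan of meningeal fibroblasts (chromosome 10, 97565128 to 97572703), passed in the lumbar cord only. It had 3.56 and 3.07 CPM in thoracic TKO, against 9.04 and 9.10 CPM in thoracic WT, and 4.41 and 3.18 CPM in lumbar TKO, against 14 and 15.3 CPM in lumbar WT. The thoracic effect was −1.45 (adjusted p = 0.106) and the lumbar one −1.94 (adjusted p = 0.0343), with a difference of 0.49 (SE 0.33). DESeq2 called 468 genes in the thoracic cord and 30 in the lumbar cord. Leaving out 1 library gave 1 to 18 thoracic calls: 2 without either thoracic TKO library, 1 and 2 without thoracic WT replicates 1 and 2, and 18 without lumbar TKO replicate 2. It gave 0 to 3 lumbar calls, with 0 without lumbar TKO replicate 2 or either lumbar WT library, 2 without either thoracic TKO library, and 3 without either thoracic WT library or lumbar TKO replicate 1.

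By the smallest p of the segment difference, the genes with a thoracic effect above the lumbar one included Tspo, Olig1, Mdk, Snhg8, Ramp1, Prph, Rps26, H2-DMa and Gjb1. None passed (adjusted p = 0.847 for each, edgeR's quasi-likelihood test). Tspo encodes a cholesterol-binding protein of the outer mitochondrial membrane that is raised in activated microglia (chromosome 15, 83563592 to 83574203). It had 1.69 and 2.24 CPM in thoracic TKO, against 0.484 and 0.65 CPM in thoracic WT, and 0.763 and 1.89 CPM in lumbar TKO, against 3.11 and 2.18 CPM in lumbar WT. The TKO libraries were thus the higher ones in the thoracic cord and the lower ones in the lumbar cord. Its effects were 1.78 in the thoracic cord (adjusted p = 0.179) and −1.0 in the lumbar cord (adjusted p = 0.863), and the segment difference was 2.79 (SE 0.65, 95% interval 1.33 to 4.25), on 9 to 53 reads a library. Mdk, the growth factor midkine (chromosome 2, 91929805 to 91932297), had 21.6 and 19.3 CPM in thoracic TKO, against 8.66 and 14.2 CPM in thoracic WT. It had 17.1 and 20.3 CPM in lumbar TKO, against 31.8 and 23.2 CPM in lumbar WT, again with opposite order, and its segment difference was 1.40 (SE 0.37).

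Genes of the oligodendrocyte lineage and of neurons were among them. Olig1, a transcription factor of oligodendrocyte precursors (chromosome 16, 91269772 to 91271933), had 300 and 315 CPM in thoracic TKO, against 178 and 197 CPM in thoracic WT. It had 225 and 249 CPM in lumbar TKO, against 276 and 238 CPM in lumbar WT, where the groups overlapped. The segment difference was 0.83 (SE 0.22). Gjb1, the myelin gap junction protein connexin 32 (chromosome X, 101376378 to 101385629), had 145 and 131 CPM in thoracic TKO, against 68.7 and 76.8 CPM in thoracic WT. It had 96.8 and 111 CPM in lumbar TKO, against 94.2 and 90.2 CPM in lumbar WT, a segment difference of 0.75 (SE 0.22). Prph, the intermediate filament peripherin of motor and sensory neurons (chromosome 15, 99055174 to 99058978), had 45.9 and 39.1 CPM in thoracic TKO, against 25.7 and 23.1 CPM in thoracic WT. It had 35.9 and 51.9 CPM in lumbar TKO, against 59.3 and 49.6 CPM in lumbar WT, and its segment difference was 1.11 (SE 0.30). Ramp1, the subunit that turns the calcitonin receptor-like receptor into a CGRP receptor (chromosome 1, 91179822 to 91225196), had a segment difference of 0.91 (SE 0.24). H2-DMa, which loads peptides on MHC class II, had 1.33 (SE 0.38), and the small nucleolar host RNA Snhg8 had 1.58 (SE 0.42).

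In the other direction, with a thoracic effect below the lumbar one, they were Igfbp5, Slc9b2, Necab1, Palm2, Gda, Cfap44, Lrrc9, Ankrd45, Zkscan16 and Lrp2, and none passed (adjusted p = 0.847 for each). Igfbp5 encodes a binding protein of insulin-like growth factors (chromosome 1, 72857932 to 72874884). It had 59.1 and 47.6 CPM in thoracic TKO, against 84.4 and 99.6 CPM in thoracic WT, and 101 and 83.7 CPM in lumbar TKO, against 91.2 and 73.1 CPM in lumbar WT. Its thoracic groups did not overlap and its lumbar groups did, and the segment difference was −0.95 (SE 0.27, 95% interval −1.56 to −0.35). Slc9b2, a sodium-proton exchanger (chromosome 3, 135307700 to 135345387), had 1.05 and 1.71 CPM in thoracic TKO, against 2.21 and 2.76 CPM in thoracic WT. It had 1.96 and 2.75 CPM in lumbar TKO, against 1.06 and 1.51 CPM in lumbar WT, so its order was reversed between the segments, with effects of −0.84 (adjusted p = 0.234) and 0.86 (adjusted p = 0.863). The segment difference was −1.71 (SE 0.52).

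Necab1, a calcium-binding protein of dorsal horn neurons (chromosome 4, 14952245 to 15149794), had 19.8 and 27.6 CPM in thoracic TKO, against 53.6 and 50.4 CPM in thoracic WT. It had 37.1 and 29.5 CPM in lumbar TKO, against 36.4 and 40.2 CPM in lumbar WT, a segment difference of −0.93 (SE 0.29). Gda, the guanine deaminase also known as cypin, had 3.27 and 3.30 CPM in thoracic TKO, against 8.07 and 6.12 CPM in thoracic WT, and 7.41 and 6.48 CPM in lumbar TKO, against 6.4 and 7.89 CPM in lumbar WT. For Gda the thoracic groups lay apart and the lumbar groups overlapped (segment difference −1.07, SE 0.34). Lrp2, the endocytic receptor megalin, showed the reverse arrangement. It had 3.39 and 2.48 CPM in thoracic TKO, against 2.85 and 4.22 CPM in thoracic WT, and 3.43 and 3.73 CPM in lumbar TKO, against 1.59 and 1.90 CPM in lumbar WT (segment difference −1.30, SE 0.43). Cfap44, an axonemal gene of motile cilia, had −0.99, and the others, Lrrc9, Ankrd45 and Zkscan16, had −1.12, −0.84 and −0.84. Palm2 had −2.16, but only 8.42% of its reads were uniquely placed, so its value is uncertain. No gene named here by its p changed sign under any alternative or with any library left out. These genes were chosen by a small p in the same libraries, so an unchanged sign gives no separate support.

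**Figure D2:**
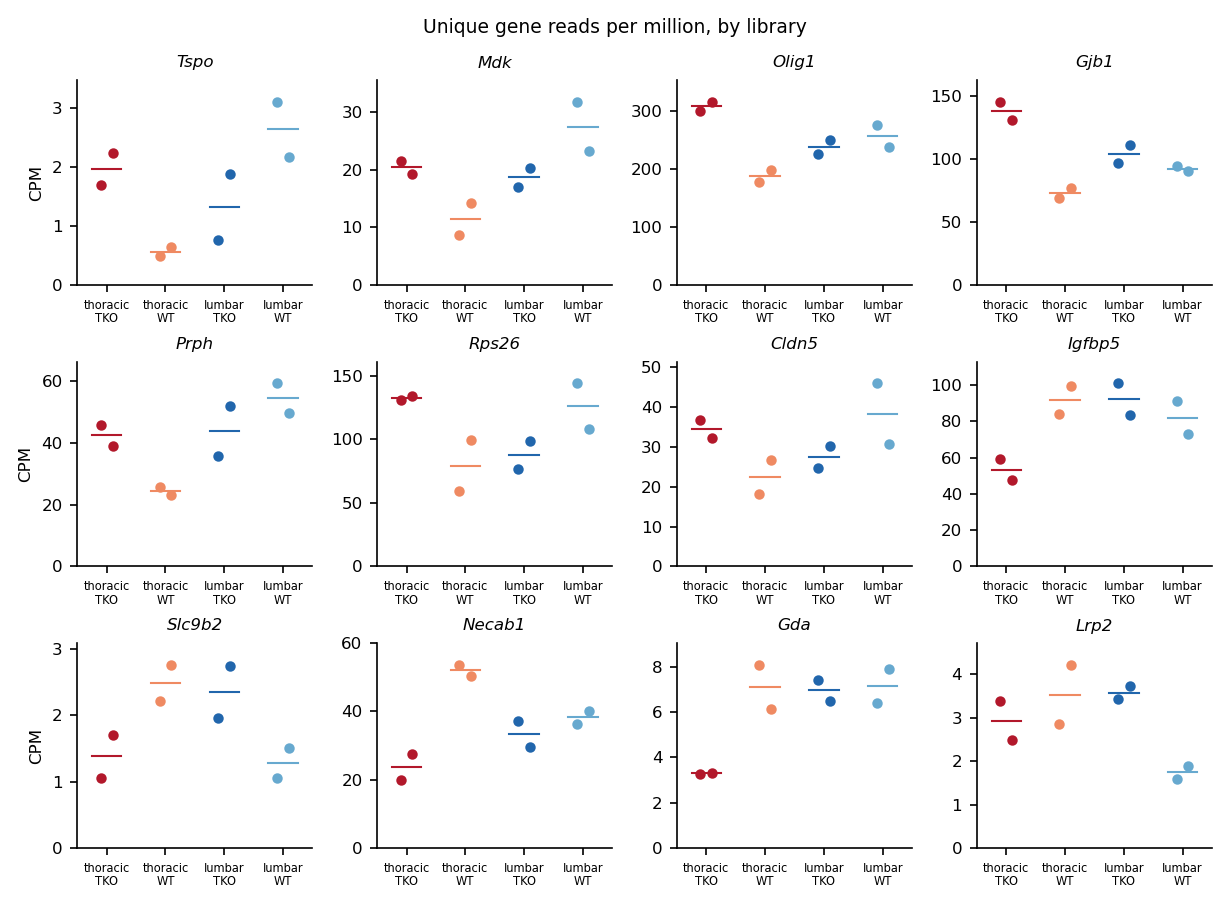
Unique gene reads scaled to library size (CPM, y axis from 0) of 12 genes in the 2 libraries of each group, with the group mean as a bar; replicate 1 is the left point. Tspo and Mdk are higher in TKO in the thoracic cord and lower in TKO in the lumbar cord, Slc9b2 shows the opposite, and Gda and Igfbp5 differ between genotypes in the thoracic cord alone by their ranges.

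Gene groups are described by the median of their members and by counts, with no test of a group. Over all 16459 genes the median segment difference was −0.01 and 48.6% of genes lay above 0. The ribosomal protein genes, whose products build the cytosolic ribosome, leaned to one side more evenly than any other list: 78 of 79 tested members had a segment difference above 0, with a median of 0.52 and a range of −0.07 to 1.88. The median effect was 0.32 in the thoracic cord and −0.20 in the lumbar cord. None passed the test, 22 had an unadjusted p under 0.05, all above 0 (2.19% of all genes), and in 41 every thoracic TKO minus WT difference exceeded every lumbar one (8.51% of all genes, 1400, did so). Rps26, a small subunit protein, had 131 and 134 CPM in thoracic TKO, against 59.2 and 99.6 CPM in thoracic WT, and 76.3 and 98.9 CPM in lumbar TKO, against 144 and 108 CPM in lumbar WT (1.26, SE 0.36). In that gene the TKO libraries were higher in the thoracic cord and lower in the lumbar cord with no overlap. Rplp0, of the ribosomal stalk, had 1.04 (SE 0.34). Rpl13 had 0.97 (SE 0.31), with 45.5% of its reads uniquely placed, so its value is uncertain. Ribosomal protein genes have many near-identical pseudogene copies.

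The lean of the ribosomal genes was carried unevenly by the libraries. Centred on each gene's mean over the 8 libraries, the median log2 level was 0.286 and −0.023 in thoracic TKO, against −0.285 and −0.097 in thoracic WT. It was −0.126 and −0.017 in lumbar TKO and 0.210 and 0.101 in lumbar WT. Without thoracic TKO replicate 1 the median segment difference was 0.347, with 63 members above 0, and it was highest, 0.683, without thoracic TKO replicate 2. The count of 22 was 10 without thoracic TKO replicate 1, 6 and 34 without thoracic WT replicates 1 and 2, 11 and 38 without lumbar TKO replicates 1 and 2, and 2 without lumbar WT replicate 1.

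Ribosomal protein messengers are known to begin with a run of pyrimidines that couples their translation to growth signals. For that reason the start regions of 4 members with a pyrimidine stretch near the annotated start are shown, taken by smallest p. Members on the chromosome of Ndufa2, described below, were left out of this choice. Each line covers 10 bases before and 20 bases from the start that RefSeq annotates on GRCm38.p6, read on the transcribed strand, and capitals mark the first stretch in the searched window of a C followed by 4 or more bases that are C or T. A further such stretch in Rpl38 is left in lower case. The capitals begin at the annotated start in Rpl38 alone, and after it in Rps26, Rplp0 and Rps13.
Rps26: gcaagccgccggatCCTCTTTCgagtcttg
Rplp0: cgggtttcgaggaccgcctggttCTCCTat
Rps13: caaacgtcggtgagtggcgtcaCTTCCTgt
Rpl38: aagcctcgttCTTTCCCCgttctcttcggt
These lie at chr10:128626487-128626516 (minus strand), chr5:115559457-115559486 (plus strand), chr7:116334171-116334200 (minus strand) and chr11:114668570-114668599 (plus strand), in the order listed. Such a stretch began between 5 bases before and 15 bases after the start in 30 of the 58 ribosomal protein promoters in the RefSeq table (51.7%). The same letters were found in 28.1% of the 12316 promoters of tested genes and in 27.3% of all 27025 promoters.

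The nuclear-encoded genes of the respiratory chain showed a like pattern, with 52 of 57 tested members above 0 and a median segment difference of 0.39. Their median effect was 0.22 in the thoracic cord and −0.13 in the lumbar cord. None passed, and 11 had an unadjusted p under 0.05, all above 0 (2.19% of all genes). Ndufa2, a subunit of complex I (chromosome 18, 36742332 to 36744557), had 64.3 and 69.4 CPM in thoracic TKO, against 23.7 and 40.4 CPM in thoracic WT. It had 36.8 and 50.2 CPM in lumbar TKO, against 58.4 and 43.5 CPM in lumbar WT, a segment difference of 1.29 (SE 0.38). Uqcrq, a subunit of complex III, had 1.10 (SE 0.34), Ndufa8 of complex I had 0.82 (SE 0.31), and cytochrome c1, Cyc1, had 0.68 (SE 0.26). By library the centred median was 0.257 and −0.121 in thoracic TKO, −0.078 and −0.113 in thoracic WT, −0.086 and 0.012 in lumbar TKO, and 0.081 and 0.151 in lumbar WT. Thoracic TKO replicate 1 stood above the rest, and without it the median was 0.191, with 36 of 57 members above 0. The count of 11 was 2 without that library, 2 and 20 without thoracic WT replicates 1 and 2, 3 and 22 without lumbar TKO replicates 1 and 2, and 2 without lumbar WT replicate 1. The 15 mitochondrially encoded genes had a median of −0.10, with 6 above 0, and that median ran between −0.702 (without thoracic TKO replicate 1) and 0.720 (without lumbar TKO replicate 1).

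Because the mitochondrial share of reads ranged widely within groups, the segment difference was also fitted with that share as a covariate, which leaves 3 residual degrees of freedom. That fit called 212 of 16459 genes, 205 with a thoracic effect above the lumbar one and 7 with a thoracic effect below it. It put 2825 genes at an unadjusted p under 0.05, against 565 without the covariate. Among the 212 were 16 of 79 ribosomal protein genes and 10 of 57 respiratory chain genes. They also included 20 of the genes named here, which had been chosen by a small p of the same segment difference. Each of the 20 had an estimate close to the one without the covariate. Ndufa2 and Rps26 had an adjusted p of 0.00929, Tspo, Mdk, Olig1, Rplp0 and Uqcrq 0.0188, Ramp1 0.0203, Gjb1 0.0241, Prph 0.0252 and Igfbp5 0.0315. Whether the mitochondrial share reflects the tissue or the preparation was not tested.

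**Figure D3:**
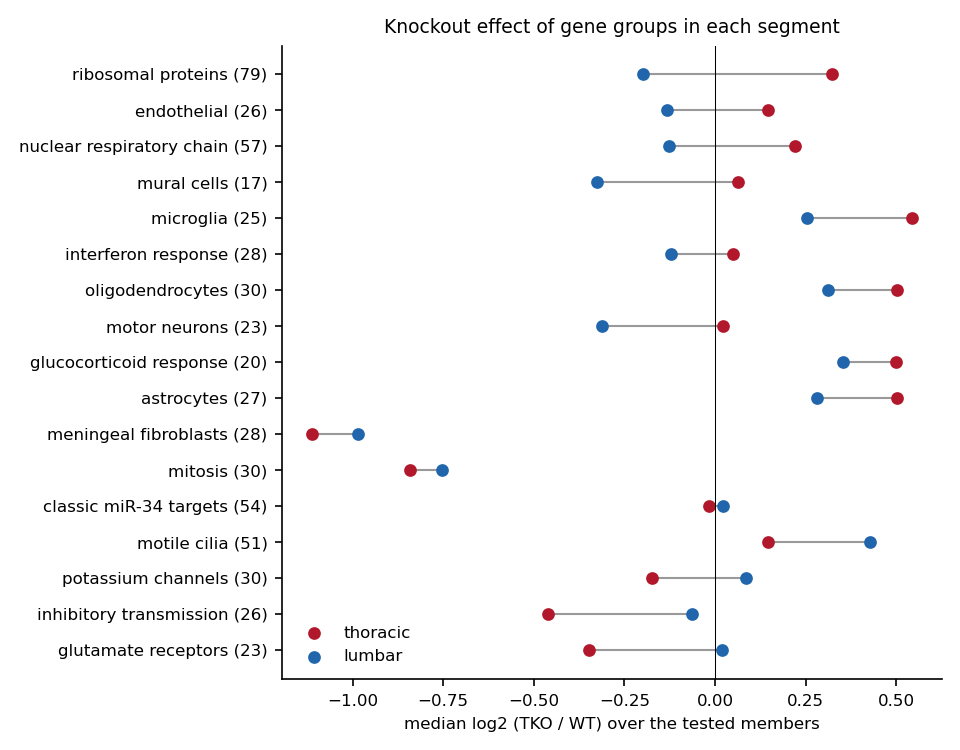
Median log2 (TKO / WT) over the tested members of 17 gene groups (number tested in brackets) in the thoracic and the lumbar cord, joined by a line, with groups ordered by their median segment difference. Ribosomal protein, endothelial and nuclear respiratory chain genes lie on opposite sides of 0 in the segments. So do mural, motor neuron, interferon and potassium channel genes, miR-34 targets, and the glutamate transport and receptor genes, which are labelled glutamate receptors. Oligodendrocyte, microglial, astrocyte and meningeal genes lie on the same side in both.

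Among the cell types of the vessels, 21 of 26 endothelial genes lay above 0 in the segment difference, with a median of 0.42, a thoracic median of 0.15 and a lumbar median of −0.13. Tie1, an endothelial receptor tyrosine kinase (chromosome 4, 118471191 to 118490061), had 14 and 13 CPM in thoracic TKO, against 8.66 and 9.37 CPM in thoracic WT. It had 10.6 and 12.3 CPM in lumbar TKO, against 19.2 and 13 CPM in lumbar WT, a segment difference of 1.07 (SE 0.32). Cldn5, the tight junction protein of the blood-brain barrier (chromosome 16, 18776847 to 18778262), had 36.8 and 32.3 CPM in thoracic TKO, against 18.1 and 26.8 CPM in thoracic WT, and 24.6 and 30.3 CPM in lumbar TKO, against 45.9 and 30.8 CPM in lumbar WT (1.11, SE 0.36). Both genes were higher in TKO in the thoracic cord and lower in TKO in the lumbar cord, by ranges that did not overlap. Mfsd2a, the lipid transporter of that barrier, had 0.63 (SE 0.24), and the glucose transporter Slc2a1 had 0.69 (SE 0.33). In bulk tissue, fewer cells of a type and less RNA per cell cannot be told apart. The endothelial median ran between 0.201 (without lumbar WT replicate 1) and 0.509 (without lumbar WT replicate 2) when 1 library was left out. Mural cell genes had 13 of 17 members above 0 and a median of 0.37, which was 0.099 without lumbar WT replicate 1. Their leading members had wide errors: Ndufa4l2, a pericyte gene, had 0.80 (SE 0.43), the smooth muscle light chain Myl9 0.73 (SE 0.48), vitronectin, Vtn, 0.59 (SE 0.40) and the potassium channel Kcnj8 0.49 (SE 0.34).

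Microglial genes were higher in TKO in both segments, with a median effect of 0.54 in the thoracic cord and 0.25 in the lumbar cord, and 19 of 25 had a segment difference above 0 (median 0.31). Laptm5, a lysosomal protein of immune cells (chromosome 4, 130913125 to 130936141), had 38.2 and 42.3 CPM in thoracic TKO, against 20.1 and 23.1 CPM in thoracic WT. It had 26.9 and 30.1 CPM in lumbar TKO, against 28.1 and 24.7 CPM in lumbar WT, a segment difference of 0.79 (SE 0.25). The thoracic groups of Laptm5 lay apart and the lumbar groups overlapped. The selectin ligand Selplg had 0.73 (SE 0.36), the signalling adaptor Tyrobp 0.53 (SE 0.28) and the microglial surface protein Tmem119 0.63 (SE 0.33). The centred median of the 25 genes was 0.360 and 0.369 in thoracic TKO, against −0.260 and −0.236 in thoracic WT, and 0.041 and 0.131 in lumbar TKO and −0.148 and −0.201 in lumbar WT. Every thoracic difference between TKO and WT libraries exceeded every lumbar one, and the median segment difference ran between 0.216 and 0.379 with 1 library left out. Oligodendrocyte genes had the same order, with centred medians of 0.345 and 0.328 in thoracic TKO, against −0.294 and −0.271 in thoracic WT, and 0.104 and 0.184 in lumbar TKO and −0.207 and −0.190 in lumbar WT. Of 30 oligodendrocyte genes, 21 had a segment difference above 0 (median 0.24). Astrocyte genes were higher in TKO by medians of 0.50 in the thoracic cord and 0.28 in the lumbar cord, and 17 of 27 had a segment difference above 0 (median 0.15). Their centred median was 0.242 and 0.245 in thoracic TKO, against −0.292 and −0.259 in thoracic WT, and 0.182 and 0.180 in lumbar TKO and 0.034 and −0.224 in lumbar WT, so here too every thoracic difference exceeded every lumbar one.

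Interferon response genes had 23 of 28 members above 0 and a median of 0.25, while the other 5 lay below 0, down to −1.37. Bst2, the antiviral protein tetherin (chromosome 8, 71534255 to 71537456), had 1.52 and 1.77 CPM in thoracic TKO, against 1.40 and 1.79 CPM in thoracic WT. It had 1.31 and 2.14 CPM in lumbar TKO, against 3.17 and 4.87 CPM in lumbar WT, so the genotypes lay apart in the lumbar cord alone (segment difference 1.27, SE 0.51). The interferon-induced genes Ifit3, with 63.3% of reads uniquely placed, and Isg15 had 1.13 (SE 0.45) and 1.46 (SE 0.60), and Oasl2 had 0.72 (SE 0.39). The interferon median depended on lumbar TKO, at 0.074 without replicate 1 and 0.706 without replicate 2. Glucocorticoid-responsive genes had 15 of 20 members above 0 and a median of 0.18, which was 0.053 without lumbar TKO replicate 1 and 0.470 without replicate 2. The other 5 lay below 0, down to −1.03, and none of the 20 had an unadjusted p under 0.05. The metallothionein Mt1 (chromosome 8, 94179082 to 94180327) had 131 and 259 CPM in thoracic TKO, against 47.1 and 59.5 CPM in thoracic WT, and 88.6 and 221 CPM in lumbar TKO, against 118 and 81.0 CPM in lumbar WT. TKO replicate 2 was the highest library in each segment, and the segment difference was 1.23 (SE 0.60). Mt3 had 1.04 (SE 0.48), Mt2 0.82 (SE 0.60) and the clock gene Per1 0.55 (SE 0.45).

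**Figure D4:**
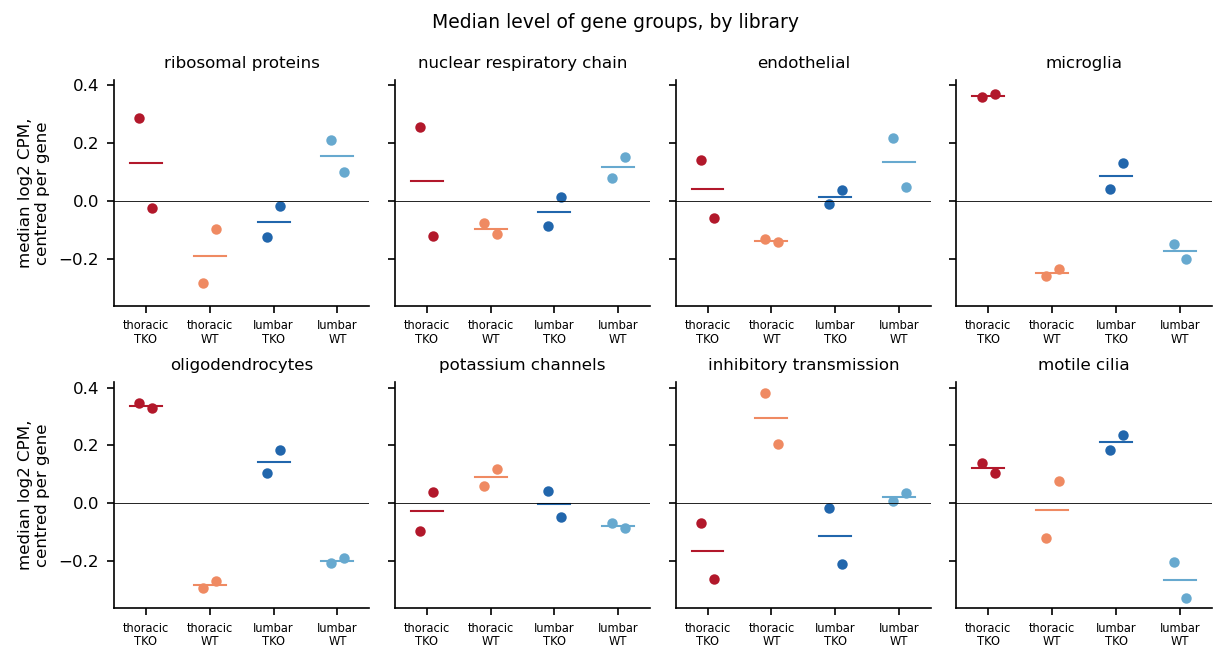
Median log2 CPM over the members of 8 gene groups in each library, after each gene was centred on its mean over the 8 libraries, with bars at the group means; replicate 1 is the left point. For microglia and oligodendrocytes the TKO libraries lie above the WT libraries in both segments, with a wider gap in the thoracic cord, and for ribosomal protein genes TKO lies above WT in the thoracic cord and below it in the lumbar cord.

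Neuronal excitability genes leaned the other way. Of 30 potassium channel genes, which set resting potential and firing, 24 had a segment difference below 0, with a median of −0.25 (thoracic −0.17, lumbar 0.09). Without lumbar TKO replicate 1 that median was −0.131 and the lumbar one 0.004. Kcnj6 and Kcnj3 encode subunits of the G protein-gated inward rectifier. Kcnj6 (chromosome 16, 94748636 to 94997701) had 7.89 and 12.2 CPM in thoracic TKO, against 12.1 and 14.9 CPM in thoracic WT, and 12.4 and 11.7 CPM in lumbar TKO, against 9.04 and 7.78 CPM in lumbar WT. Its lumbar groups lay apart and its thoracic groups overlapped (segment difference −0.94, SE 0.35). Kcnj3 had −0.61 (SE 0.27) and Kcnh7 −0.62 (SE 0.33), while the tandem-pore channel Kcnk3 lay above 0 at 0.59 (SE 0.30). Of 26 genes of inhibitory transmission, 20 lay below 0, with a median of −0.29, a thoracic median of −0.46 and a lumbar median of −0.06. Gad2, a GABA-synthesizing enzyme (chromosome 2, 22622205 to 22693874), had 77.9 and 75.6 CPM in thoracic TKO, against 130 and 122 CPM in thoracic WT. It had 94.1 and 89.4 CPM in lumbar TKO, against 94.9 and 104 CPM in lumbar WT, a segment difference of −0.60 (SE 0.20). The glycine receptor subunit Glra3 had −0.77 (SE 0.32) and the glial glycine transporter Slc6a9 0.66 (SE 0.31). The inhibitory median was −0.050 without lumbar TKO replicate 1 and −0.472 without replicate 2. Glutamate transport and receptor genes had 6 of 23 members above 0 and a median of −0.29, and sodium channel and node genes 7 of 20 and −0.22. The glutamate median was −0.136 and −0.498 without lumbar TKO replicates 1 and 2, and the sodium channel median was −0.001, with 10 of 20 above 0, once the trend with exon length described below was removed.

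Motor neuron genes, of interest since the series title concerns a motor neuron disease, had 15 of 23 members above 0 and a median of 0.22 (thoracic 0.02, lumbar −0.31). The other 8 lay below 0, down to −0.8. The median segment difference was 0.422 without thoracic WT replicate 1, 0.128 and 0.409 without lumbar TKO replicates 1 and 2, and the lumbar median was −0.067 without lumbar TKO replicate 1. Chat, the acetylcholine-synthesizing enzyme of cholinergic neurons (chromosome 14, 32408203 to 32465989), was chosen for mention once its values were known. It had 18.9 and 16 CPM in thoracic TKO, against 12.5 and 14.1 CPM in thoracic WT, and 9.97 and 14 CPM in lumbar TKO, against 15.9 and 17.9 CPM in lumbar WT. The order of the genotypes turned between the segments without overlap, and the segment difference was 0.89 (SE 0.31, adjusted p = 0.847). Prph, described above, also marks nerve roots. The Schwann list had 14 of 19 members above 0 and a median segment difference of 0.49. That median was −0.225 without thoracic TKO replicate 2 and 1.53 without lumbar TKO replicate 2. The median effect was −0.14 in the thoracic cord, with 12 of 19 members lower in TKO. It was −0.54 in the lumbar cord, with 15 of 19 lower in TKO, and 0.143 there without lumbar TKO replicate 1. The summed level of the list was 39500 to 46400 CPM in thoracic TKO, 19400 to 24600 in thoracic WT, 28500 to 37800 in lumbar TKO and 26100 to 31300 in lumbar WT. Most of it came from Mbp, which oligodendrocytes express too, so the sum does not show the direction of most members. Sensory ganglion genes summed to 27.5 to 32.2 CPM in thoracic TKO, 38.7 to 41.8 in thoracic WT, 32.2 to 35.1 in lumbar TKO and 40.9 to 44.7 in lumbar WT, and 2 to 4 of the 16 found were at 0 in a library. The part of nerve roots in the neuronal differences was not tested.

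Skeletal muscle genes, foreign to the cord, had 7 of 26 members above 0 and the median furthest below 0 among the lists described, −0.66, and it was 0.230 without thoracic WT replicate 1 and −1.318 without thoracic TKO replicate 1. The summed level was 289 to 309 CPM in thoracic TKO, 181 to 293 in thoracic WT, 253 to 296 in lumbar TKO and 185 to 224 in lumbar WT, and in every library but thoracic WT replicate 1 most of it came from glycogen phosphorylase, Pygm, which neural tissue also expresses (segment difference 0.58, SE 0.25). The sarcomere genes Mylpf and Ttn had −2.30 (SE 1.39) and −2.02 (SE 1.13), and both were highest in thoracic WT replicate 1. Red cell genes had 5 of 12 members above 0 and a median of −0.07, leukocyte genes 9 of 21 and −0.16, and fat, bone and cartilage genes 7 of 10 and 0.17. These medians moved with single libraries. The red cell median ran between −0.766 (without lumbar WT replicate 1) and 0.608 (without lumbar TKO replicate 2), the leukocyte median between −0.716 and 1.188 (without lumbar TKO replicates 1 and 2), and the fat, bone and cartilage median between 0.306 and −0.024 (without the same libraries in that order).

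Motile cilia genes, whose programme the miR-34/449 family is known to serve, were higher in TKO in both segments by their medians, 0.15 in the thoracic cord and 0.43 in the lumbar cord. Of 51 tested members, 37 had a segment difference below 0 (median −0.24), and in 12 every thoracic difference lay below every lumbar one (8.78% of all genes, 1445, did so). Cfap44, named above, had 7.42 and 9.73 CPM in thoracic TKO, against 10.1 and 10.7 CPM in thoracic WT, and 8.67 and 10.3 CPM in lumbar TKO, against 6.17 and 5.37 CPM in lumbar WT. Of 54 genes classed as miR-34 targets, 22 lay above 0, with a median of −0.14 (thoracic −0.02, lumbar 0.02), and none had an unadjusted p under 0.05. With 1 library left out, the median ran between −0.112 (without lumbar WT replicate 2) and 0.003 (without lumbar TKO replicate 1), nearer to 0 in each of the 8 fits, and it was −0.023 with the exon length trend removed. A match to the shared seed (CACTGCC, or ACTGCCA, with both joined as CACTGCCA) was searched on the transcribed strand of the longest 3′ UTR in GENCODE M21 of 14631 genes. The median segment difference was −0.05 over the 883 genes with CACTGCCA, −0.06 over the 2557 with a shorter match and 0.00 over the 11191 with none. The thoracic medians were −0.00, −0.04 and −0.01 and the lumbar medians 0.05, 0.02 and −0.02 in that order. Genes with a match have longer UTRs. Within each of 5 classes of UTR length their median segment difference lay above that of genes without a match. It was 0.373 against 0.2096 in the shortest class and −0.2052 against −0.2299 in the longest. The thoracic and the lumbar medians also lay higher with a match in each class. In the shortest class the thoracic median was 0.3471 against 0.198 and the lumbar median −0.0025 against −0.0066. In the longest class they were −0.1642 against −0.2147 and 0.0354 against −0.008. These gaps were not tested.

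Meningeal fibroblast genes were lower in TKO by a median of −1.11 in the thoracic cord and −0.99 in the lumbar cord, and 13 of 28 had a segment difference above 0 (median −0.06). That median was −0.394 and 0.276 without lumbar TKO replicates 1 and 2, −0.336 without thoracic TKO replicate 2, and −0.311 and 0.170 without thoracic WT replicates 1 and 2. Mitosis genes had medians of −0.84 and −0.75, and 12 of 30 lay above 0 (median −0.10), with a median of 0.296 and −0.346 without lumbar TKO replicates 1 and 2. DNA replication genes had 19 of 30 above 0, cholesterol synthesis genes 13 of 22, p53 response genes 14 of 30, and SMN and snRNP genes 13 of 27 with a median of −0.02. Thoracic Hox genes had 5 of 6 above 0 with a median of 0.09, and rostral Hox genes 3 of 7. No member of any of the 48 lists passed the test.

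The segment difference moved with the annotated exon length of the gene. With the tested genes split into 10 classes by annotated exon length, the median segment difference was 0.16 in the shortest class (up to 1474 bases), where 60.7% of genes lay above 0. It was −0.27 in the longest class (9559 bases or more), where 19.3% lay above 0. The thoracic median was 0.12 in the shortest class and −0.17 in the longest, and the lumbar median was −0.04 and 0.10. The libraries of a group did not all follow the same trend. The median centred log2 level in the shortest and the longest class was 0.109 and −0.074 in thoracic TKO replicate 1 and 0.045 and −0.019 in replicate 2, against −0.058 and 0.160 in thoracic WT replicate 1 and −0.051 and 0.065 in replicate 2. It was −0.064 and 0.101 in lumbar TKO replicate 1 and 0.081 and −0.053 in replicate 2, against 0.033 and −0.041 in lumbar WT replicate 1 and 0.080 and −0.097 in replicate 2. Lumbar TKO replicate 1 thus ran opposite to the other 3 lumbar libraries. Leaving out ribosomal protein and respiratory chain genes gave 0.14 in the shortest class. That class held 27 ribosomal protein and 22 respiratory chain genes, and the median exon length of the potassium channel genes was 7229.5 bases. When each library's trend with exon length was removed, an alternative chosen after the trend was seen, the test again called 0 genes, with 191 above and 189 below 0 at an unadjusted p under 0.05. The ribosomal median was then 0.368, with 71 of 79 above 0 and 8 at an unadjusted p under 0.05, the respiratory chain median 0.189, with 36 of 57 above 0, the endothelial median 0.320 and the potassium channel median −0.114. The oligodendrocyte median was 0.115, the interferon median 0.14 and the sodium channel median −0.001. What the length trend reflects was not tested.

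**Figure D5:**
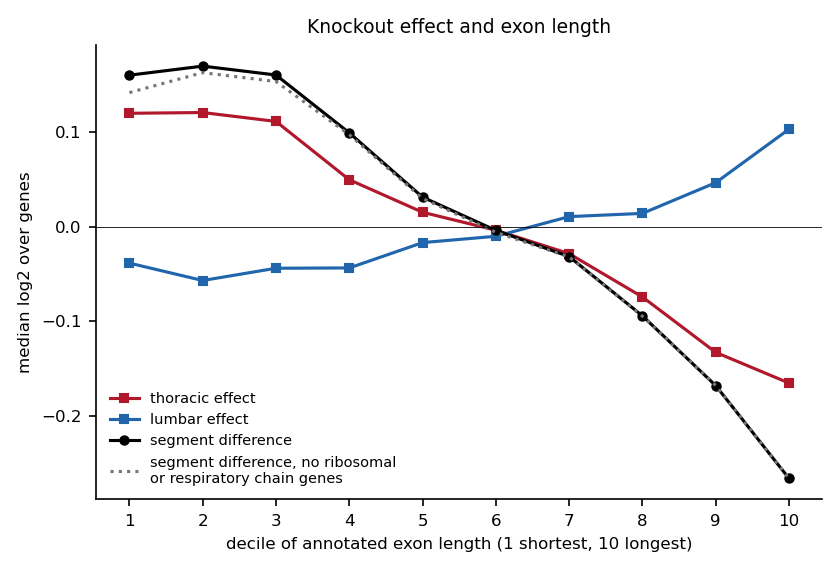
Median log2 over genes (y axis) of the thoracic effect, the lumbar effect and their difference in 10 classes of annotated exon length with 1645 or 1646 genes each (x axis). The segment difference falls from the shorter to the longer classes, also without ribosomal protein and respiratory chain genes, and the thoracic and lumbar lines slope in opposite directions, although lumbar TKO replicates 1 and 2 differ in the direction of their own trend.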

How the data were processed

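RNA of 8 spinal cord pieces was sequenced from stranded polyadenylated libraries, per the labels' protocols. The authors deposited, per the file headers, a table per library with counts of total and unique gene reads, exon reads and RPKM (reads scaled to gene length and library size) on mm10, the build in the submitters' processing notes. The sources used here do not give the aligner or the counter. Unique gene reads were tested with edgeR 4.0.16 in R 4.3.3 (TMM scaling, filterByExpr, robust quasi-likelihood F test, Benjamini-Hochberg over all genes tested, threshold 0.05), with 1 mean per group and 4 residual degrees of freedom. The segment difference is the thoracic minus the lumbar log2 effect. A count of 0 allows up to 3 reads, 0.161 to 0.183 CPM by library, for counting error only. Same-group libraries differed by more than sampling noise. Library medians of groups used log2 CPM with a prior count of 0.5, centred per gene.

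Named genes were up to 10 in each direction with the smallest p of the segment difference at 1 CPM or more, genes called in 1 segment only, genes of opposite sign under 0.05 in each segment, up to 4 members of each list described, and label checks. Genes outside that rule are named as such. The members and the 48 lists were chosen with earlier results of these data known, and no list was tested as a set. Alternatives were scaling, filters, read classes, DESeq2 1.42.0, limma 3.58.1 on voom weights or on log2(RPKM + 0.5 or 0.1), a mitochondrial covariate, replicate blocks and leaving out libraries. Some genes that the rule or a list takes are not reported here.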

Additional observations from a re-analysis of the deposited data

Results flagged for a closer look

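For 4 gene groups, every TKO minus WT difference between thoracic libraries had the opposite sign to every one between lumbar libraries. The value is the difference of group means of the centred median log2 level, thoracic minus lumbar, and these differences were not tested. It was 0.5499 for ribosomal protein genes and 0.296 for endothelial genes, both higher in TKO in the thoracic cord and lower in TKO in the lumbar cord. It was −0.192 for potassium channel genes and −0.0651 for miR-34 targets, both lower in TKO in the thoracic cord and higher in TKO in the lumbar cord. The order of the miR-34 targets rested on small gaps. Their centred medians were 0.003 and −0.04 in thoracic TKO, against 0.008 and 0.007 in thoracic WT. They were 0.065 and 0.021 in lumbar TKO, against 0.015 and −0.008 in lumbar WT. The summed potassium channel level was not lower in thoracic TKO, at 3000 CPM, against 2810 to 2990 CPM in thoracic WT. Among single genes, 1.74% had the first arrangement and 1.94% the second, shares that do not carry over to the medians of lists.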

How the results depend on the processing

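The segment difference called 0 genes under other scalings and filters, exon reads, DESeq2, limma-voom, limma on RPKM, without both TKO replicate 2 libraries and with 0 to 0 calls when 1 library was left out. Total gene reads called 1 gene and the mitochondrial covariate 212. A replicate block called 0, with 829 genes at an unadjusted p under 0.05, and a block within genotype 0. The labels do not say that the numbers pair libraries. Deviations of same-numbered libraries correlated at 0.611 to 0.762 among 3 groups and at −0.639 to −0.624 with lumbar WT. With the lumbar WT numbers crossed, chosen after seeing the data, the blocks called 379 and 437.

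Thoracic calls were 89 with no filter, 468 with DESeq2, 1, 1 and 3 with limma on RPKM at a pseudocount of 0.5, of 0.1 and without a filter, 1242 with the mitochondrial covariate, 15 with the replicate block, 5063 with it crossed, 16 without both TKO replicate 2 libraries, 26 from the thoracic libraries alone and 1 to 18 with 1 library left out. Lumbar calls were 16, 30, 1, 1, 10, 245, 9, 475, 9, 2 and 0 to 3 in the same order, with 2 on exon reads and 3 with the length trend removed. A lone library is assumed to vary like the others. With 1 library left out, Gm37795 ran from −0.60 (lumbar WT replicate 1) to 0.09 (lumbar WT replicate 2) and Mylpf from −3.36 (thoracic TKO replicate 1) to 0.44 (thoracic WT replicate 1). The causes were not tested. With 2 libraries a group, 95% intervals that reach a median of 0.75 to either side limit what can be seen.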
